A study of Caenorhabditis elegans with 12 samples.

Results

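A set of 10 transcription factors that direct cell fates in the *Caenorhabditis elegans* embryo were followed through the whole-animal transcriptomes of day 6 adults. The 10 genes are elt-1, elt-3, lin-26, ceh-43, unc-130, ngn-1, hlh-14, hlh-1, ceh-22 and elt-7, taken by symbol as regulators of epidermis, neurons, muscle, pharynx and endoderm. Each symbol matched 1 WormBase identifier, so they are 10 of the 46748 identifiers in the deposited count table. The rule that picks them uses symbols and no measured value.

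The study crossed genotype with diet, in 4 groups of 3 libraries labelled as biological replicates. The groups were sek-1(km4) on dietary restriction (DR), sek-1(km4) on ad libitum food (AL), N2 on DR and N2 on AL. N2 is the standard wild-type strain. The gene sek-1 encodes a MAP kinase kinase of the p38 pathway, best known for its place in innate immunity, and the mutant is represented by the single allele km4. All 4 groups shared the rest of the regimen: growth at 20 °C on plates with OP50 bacteria, transfer near adulthood to plates with antibiotics and 100 mg/L FUdR, and a move on adult day 3 into 1 ml wells of liquid holding arrested OP50 and 10 to 20 worms. FUdR is an inhibitor of DNA synthesis that is used to stop progeny from developing. DR was food at an optical density (OD) of 0.1 and AL food at an OD of 3, each for 3 days. Whole worms were frozen on adult day 6, and poly(A)-enriched RNA was read as 50 bp single ends. The comparisons ask how the level of these regulators in adults depends on sek-1, on diet and on both together.

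In the embryo, fates are assigned in steps. Maternal factors divide the early blastomeres, zygotic GATA, bHLH, homeobox and forkhead factors then commit their descendants to a tissue, and several of these factors stay on to maintain the tissue they specified. elt-1 is the GATA factor at the head of the epidermal programme, elt-3 is a GATA factor that acts after it in epidermal cells, and lin-26 is a zinc-finger factor needed to keep epidermal and support cells in their fate. ceh-43 is the worm's Distal-less homeobox gene, with roles in anterior epidermis and in neurons. The neuronal regulators are the proneural bHLH genes ngn-1 (neurogenin family) and hlh-14 (Achaete-Scute family), together with the forkhead gene unc-130, which acts in neuronal lineages and in the guidance of migrating cells. hlh-1 is the worm's MyoD, ceh-22 is an NK-2 homeobox gene of pharyngeal muscle, and elt-7 is a GATA factor of the endoderm that works beside elt-2 in the intestine.

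The libraries held 13673987 to 31675540 counts, of which 30.67% to 47.75% lay on annotated rRNA genes, and a count of 3 corresponded to 0.095 to 0.219 CPM, the unit of counts scaled to library size that is used throughout. N2 AL replicate 3 stood apart: its log CPM values correlated with the other N2 AL libraries at 0.904 and 0.907, and the results below are given with and without it where it matters. The sek-1 transcript itself was at 20.7 to 22.4 CPM in sek-1(km4) on DR against 23.4 to 28.5 CPM in N2 on DR, and at 16.4 to 18.8 CPM in sek-1(km4) on AL against 3.71 to 22.7 CPM in N2 on AL. A count over the whole gene does not separate the deleted part from the rest, so it checked neither the deletion nor the labels. In bulk RNA of whole animals, a change in the number of cells of a type and a change in RNA per cell cannot be told apart.

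All 10 regulators were detected, at very different levels. Per kilobase of merged exon, the mean over the 12 libraries was 40.6 CPM for lin-26 (range 17.7 to 45.4) and 33.8 CPM for ceh-43 (16.95 to 56.3). elt-1 followed at a mean of 6.89 CPM per kilobase, then ngn-1 at 4.16, elt-3 at 4.09, hlh-14 at 2.36, elt-7 at 2.19 and unc-130 at 1.53. hlh-1 averaged 0.577 CPM per kilobase (0.266 to 1.04), and ceh-22 came last at 0.085 (0 to 0.227). The ranges of neighbours in this order overlapped, except that every ceh-43 value lay above every elt-1 value and every ceh-22 value below every hlh-1 value. The low filter for testing asked for 0.425 CPM in at least 3 libraries, and all 10 passed it. ceh-22 and hlh-1 owed their passing to the mutant: ceh-22 reached that level in 2 sek-1 DR libraries, 1 sek-1 AL library and no N2 library, and hlh-1 in all 6 sek-1 libraries, 1 N2 DR library and 1 N2 AL library. unc-130 reached it in all 6 sek-1 libraries, 3 N2 DR libraries and 1 N2 AL library.

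**Figure D1:**
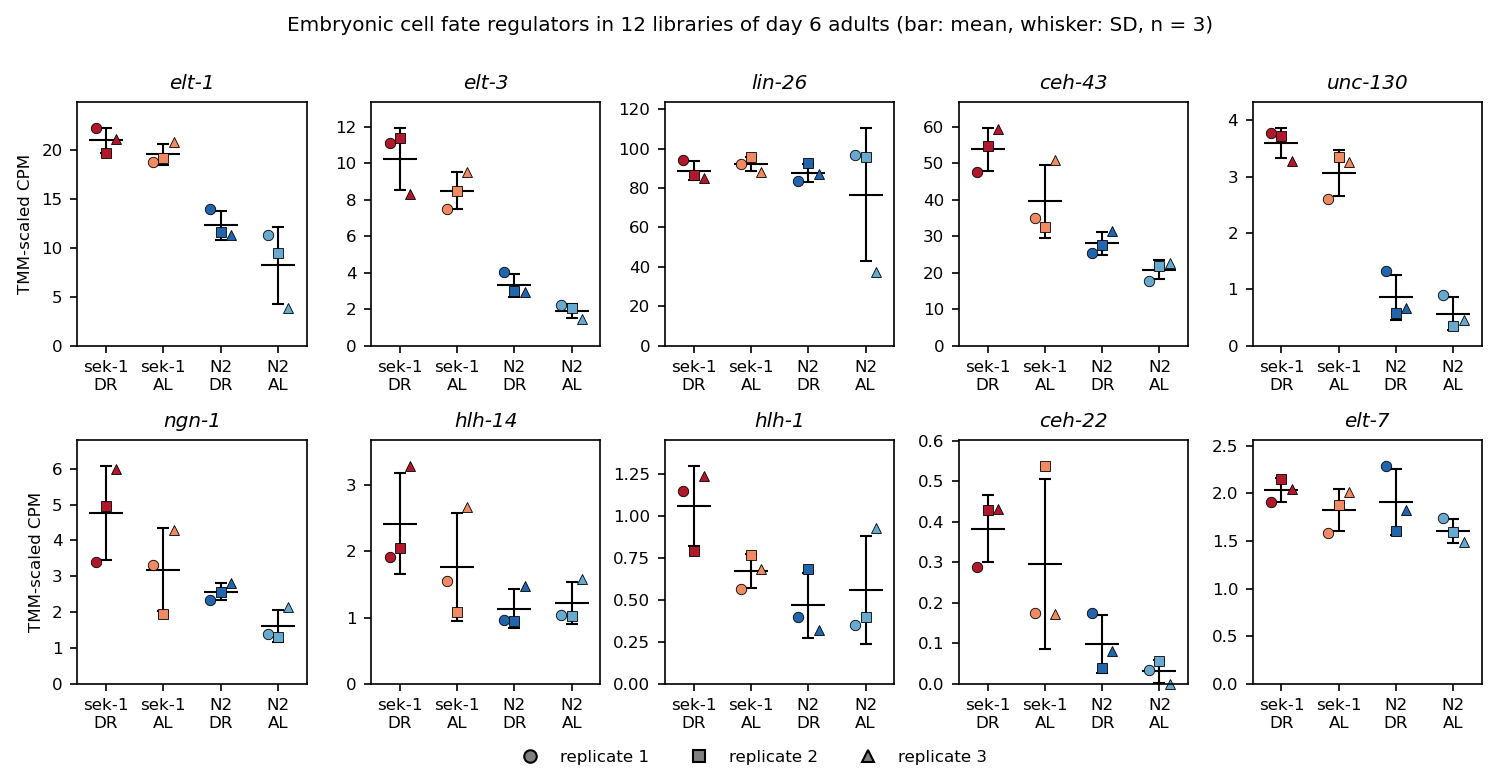
Level of each of the 10 regulators in TMM-scaled CPM (y axis, 1 scale per gene) in the 4 groups (x axis), with 1 point per library, its shape giving the replicate number, the bar the mean and the whisker the SD (n = 3). elt-3 and unc-130 sit higher in all 6 sek-1(km4) libraries than in all 6 N2 libraries, whereas lin-26 lies between 83.5 and 96.6 CPM in every library other than N2 AL replicate 3.

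Of these regulators, 7 rose in sek-1(km4) against N2 on DR, and 5 rose on AL. None fell on either diet. On DR the 7 were elt-3, ceh-43, unc-130, ngn-1, hlh-14, hlh-1 and ceh-22, beside 24.9% of all 14611 tested genes that were higher and 14.6% that were lower (edgeR's quasi-likelihood test, Benjamini-Hochberg adjusted p under 0.05). On AL the 5 were elt-1, elt-3, ceh-43, unc-130 and ceh-22, beside 12.7% of all tested genes higher and 4.72% lower. The median log2 fold change over the 10 was 1.01 on DR, where that of all tested genes was 0.17, and 0.97 on AL, where that of all tested genes was 0.02. These medians are 0.94 and 0.93 without ceh-22, whose fitted fold rests on few reads. hlh-1 and ceh-22 entered the test only through mutant libraries, where they are high. Of the 8 members that the N2 libraries alone would have let through the filter, 5 rose on DR and 4 on AL, beside 21% and 11.9% of the 12264 tested genes of that kind. On DR, 8 of the 10 had all 3 sek-1 libraries above all 3 N2 libraries, an arrangement found in 38.9% of tested genes, and on AL 5 of the 10 did, against 21.8% of tested genes. The 8 on DR include hlh-1 and ceh-22, and the 5 on AL include ceh-22.

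The split of all calls depended on the scaling. On AL, edgeR called 1860 genes higher and 690 lower in sek-1(km4), against 1722 and 1013 with relative-log (RLE) size factors and 1939 and 1726 with DESeq2. On DR, edgeR called 3631 higher and 2136 lower, against 3301 and 2989 with DESeq2, and the median of all tested genes moved to 0.07 with RLE factors and 0.05 with DESeq2. The 3 regulators elt-3, ceh-43 and unc-130 were called higher on both diets with each of these scalings, and no member that passed changed sign with any of them.

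**Figure D2:**
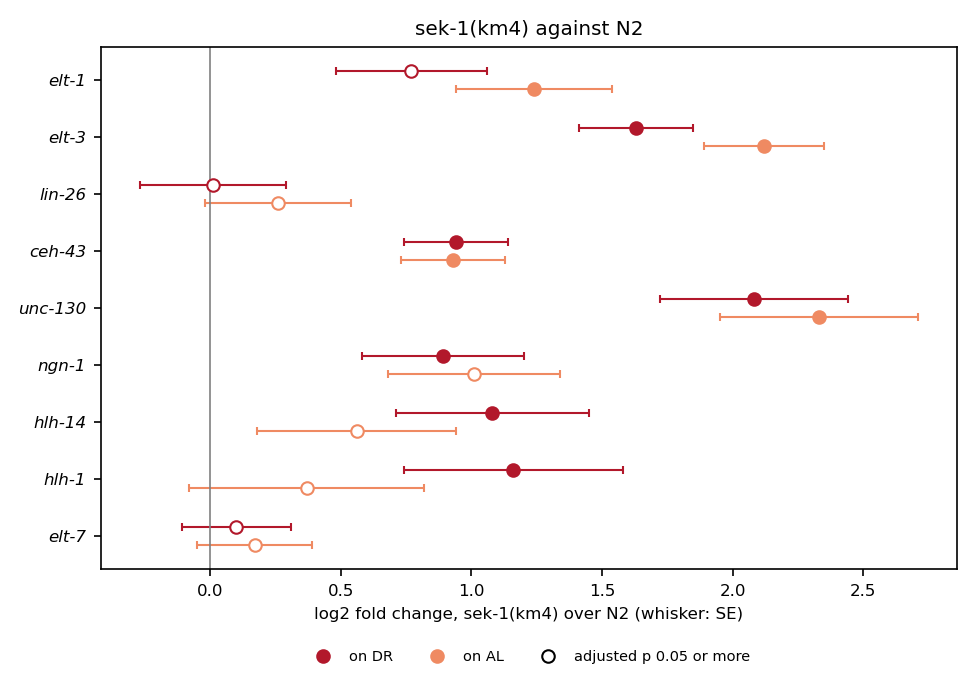
Fitted log2 fold change of sek-1(km4) over N2 (x axis, whiskers SE) for 9 of the regulators on DR (red) and on AL (orange), with filled points where the edgeR adjusted p is under 0.05. elt-3 and unc-130 lie farthest to the right on both diets, and lin-26 and elt-7 lie near 0. ceh-22 is given by its count ratio in the text.

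Among the epidermal regulators, elt-3 had the clearest difference between genotypes. The elt-3 gene lies on chromosome X at 13934874 to 13941216 on the plus strand (WBcel235). Its level was 11.1, 11.4 and 8.30 CPM in sek-1(km4) on DR, against 4.05, 2.98 and 2.94 CPM in N2 on DR. On AL it was 7.51, 8.49 and 9.53 CPM in sek-1(km4), against 2.22, 2.06 and 1.48 CPM in N2. The lowest mutant library thus stood above the highest N2 library across both diets. elt-3 rose 3.09-fold on DR (log2 1.63 ± 0.22 SE, n = 3 per group, edgeR adjusted p = 0.000287) and 4.34-fold on AL (log2 2.12 ± 0.23 SE, edgeR adjusted p = 9.72e-05). Without N2 AL replicate 3 the log2 difference on AL was 1.98.

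elt-1, on chromosome IV at 9614995 to 9620280 on the plus strand, was also separated by genotype but with a smaller fold. It was at 22.2, 19.6 and 21.1 CPM in sek-1(km4) on DR against 13.95, 11.6 and 11.3 CPM in N2 on DR. Its AL levels were 18.7, 19.1 and 20.8 CPM in sek-1(km4) against 11.3, 9.42 and 3.81 CPM in N2, the lowest value being that of replicate 3. No mutant library reached down to an N2 library on either diet. elt-1 rose 2.35-fold on AL (log2 1.24 ± 0.30 SE, edgeR adjusted p = 0.0153), whereas its log2 difference on DR, 0.77 ± 0.29 SE, did not pass (edgeR adjusted p = 0.0562). Without N2 AL replicate 3 the same 2 contrasts gave 0.90 on AL (adjusted p = 0.000486) and 0.77 on DR (adjusted p = 0.000192), so that elt-1 passed on both diets. The AL call was lost without sek-1 AL replicate 2 (adjusted p = 0.0633) or replicate 3 (0.0731), and the DR difference also passed without N2 AL replicate 1 (0.0423). In fits of the libraries of 1 diet alone elt-1 passed on DR (adjusted p = 0.00124) and not on AL (0.12), and limma with voom and sample quality weights called it on DR (6.25e-06).

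ceh-43, on chromosome III at 4446638 to 4449943 on the minus strand, rose by nearly the same amount on both diets. It was at 47.6, 54.7 and 59.3 CPM in sek-1(km4) on DR against 25.4, 27.5 and 31.4 CPM in N2 on DR. Its AL levels were 35.1, 32.6 and 51.02 CPM in sek-1(km4) against 17.9, 21.99 and 22.6 CPM in N2. The genotypes did not overlap on either diet. The fold was 1.92 on DR (log2 0.94 ± 0.20 SE, edgeR adjusted p = 0.00366) and 1.90 on AL (log2 0.93 ± 0.20 SE, edgeR adjusted p = 0.00749). In a fit of the AL libraries alone ceh-43 did not pass (adjusted p = 0.0552).

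lin-26, on chromosome II at 7682198 to 7684764 on the plus strand, did not pass on either diet. It averaged 88.7 ± 4.77 CPM in sek-1(km4) on DR and 87.8 ± 4.57 CPM in N2 on DR (SD, n = 3 each), and 92.0 ± 3.57 CPM in sek-1(km4) on AL and 76.7 ± 33.9 CPM in N2 on AL. The wide spread of the last group came from replicate 3, at 37.6 CPM beside 96.6 and 95.8 CPM in the other N2 AL libraries. The log2 difference was 0.01 ± 0.28 on DR and 0.26 ± 0.28 on AL (SE; edgeR adjusted p = 0.972 and 0.556), and without N2 AL replicate 3 the AL difference was -0.07. The exons of lin-26 share 156 nt with the neighbouring gene lir-1 on the same strand, so reads there could belong to either gene. lir-1 passed in no contrast either.

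Of the neuronal regulators, unc-130 differed most. This forkhead gene lies on chromosome II at 11281966 to 11283959 on the plus strand. It was at 3.78, 3.73 and 3.29 CPM in sek-1(km4) on DR against 1.32, 0.573 and 0.676 CPM in N2 on DR. On AL it was at 2.61, 3.34 and 3.26 CPM in sek-1(km4) against 0.904, 0.343 and 0.464 CPM in N2. Mutant and N2 libraries were apart on both diets, and replicate 1 was the highest N2 library each time. unc-130 rose 4.22-fold on DR (log2 2.08 ± 0.36 SE, edgeR adjusted p = 0.00129) and 5.04-fold on AL (log2 2.33 ± 0.38 SE, edgeR adjusted p = 0.00138).

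The proneural genes passed on DR and not on AL, but for ngn-1 both results lay close to the threshold. ngn-1, on chromosome IV at 2626062 to 2628271 on the minus strand, was at 3.38, 4.95 and 5.98 CPM in sek-1(km4) on DR against 2.33, 2.56 and 2.83 CPM in N2 on DR. Its levels on AL were 3.31, 1.96 and 4.29 CPM in sek-1(km4) against 1.39, 1.31 and 2.13 CPM in N2. The libraries were apart on DR and overlapped on AL, where the lowest mutant value lay under the highest N2 value. The log2 difference of ngn-1 was 0.89 ± 0.31 on DR and 1.01 ± 0.33 on AL (SE; edgeR adjusted p = 0.0406 and 0.0544). On AL ngn-1 passed when N2 AL replicate 3, N2 DR replicate 3, sek-1 AL replicate 2 or sek-1 DR replicate 2 was left out (adjusted p = 0.0128, 0.0403, 0.0113 and 0.0497). It also passed on AL with DESeq2 (0.0346), with voom weights (0.0348), with no filter (0.02) and with rRNA genes removed (0.0308). On DR ngn-1 missed the threshold with RLE factors (0.0579), no filter (0.0588) and DESeq2 (0.0656), so which diet passes depends on the fit.

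hlh-14, on chromosome II at 5737785 to 5738895 on the minus strand, was at 1.91, 2.04 and 3.29 CPM in sek-1(km4) on DR against 0.968, 0.954 and 1.47 CPM in N2 on DR. The AL levels were 1.55, 1.08 and 2.66 CPM in sek-1(km4) against 1.04, 1.03 and 1.58 CPM in N2. The pattern resembled that of ngn-1, with no overlap on DR and overlap on AL, and with replicate 3 the highest library of every group. hlh-14 rose 2.11-fold on DR (log2 1.08 ± 0.37 SE, edgeR adjusted p = 0.0367), and its log2 difference on AL was 0.56 ± 0.38 SE (edgeR adjusted p = 0.325).

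The muscle and pharyngeal regulators sat near the limit of detection. hlh-1, the MyoD gene on chromosome II at 4518574 to 4522528 on the plus strand, was at 1.15, 0.789 and 1.24 CPM in sek-1(km4) on DR against 0.396, 0.687 and 0.318 CPM in N2 on DR. On AL it was at 0.564, 0.768 and 0.687 CPM in sek-1(km4) against 0.348, 0.4 and 0.928 CPM in N2. The genotypes were apart on DR and overlapped on AL, where the highest of the 6 libraries was N2 replicate 3. hlh-1 rose 2.23-fold on DR (log2 1.16 ± 0.42 SE, edgeR adjusted p = 0.047), and on AL the log2 difference was 0.37 ± 0.45 SE (edgeR adjusted p = 0.61). hlh-1 shares 68 nt of exon with B0304.4 on the opposite strand, a gene with 5454 counts over the 12 libraries. The strand setting of the counting is not given in the sources used here, so reads of the pair may not be separated. B0304.4 was at 54.4 CPM in N2 AL replicate 3 and at or under 20.6 CPM in the other N2 AL libraries, and it passed in no contrast.

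ceh-22, on chromosome V at 10671918 to 10675769 on the plus strand, is best read in counts. It had 8, 12 and 8 counts in the sek-1 DR libraries against 4, 1 and 2 in the N2 DR libraries, and 5, 14 and 4 in the sek-1 AL libraries against 1, 1 and 0 in the N2 AL libraries. No N2 library had more counts than 4, and the highest mutant count was 14, in sek-1 AL replicate 2. Scaled to library size, the summed counts of 28 and 7 gave a ratio of 3.99 on DR (95% interval 1.70 to 10.8). Those of 23 and 2 gave a ratio of 8.44 on AL (2.09 to 73.9), and both intervals cover counting error only. ceh-22 passed on DR (edgeR adjusted p = 0.0419) and on AL (edgeR adjusted p = 0.0396). Its exons overlap the non-coding gene F29F11.19 over 555 nt on the opposite strand, which had 1 count in all libraries together.

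elt-7, the endodermal regulator on chromosome V at 4770670 to 4773086 on the plus strand, did not pass in any contrast. It was at 1.91 to 2.15 CPM in sek-1(km4) on DR against 1.60 to 2.29 CPM in N2 on DR, and at 1.59 to 2.02 CPM in sek-1(km4) on AL against 1.48 to 1.74 CPM in N2 on AL. The groups overlapped on both diets. The log2 difference between genotypes was 0.10 ± 0.21 on DR and 0.17 ± 0.22 on AL (SE; edgeR adjusted p = 0.739 and 0.649).

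How firmly a call stood varied among the regulators. elt-3, ceh-43 and unc-130 passed on both diets in each of the 12 fits that left out 1 library. On DR the other calls were near the threshold. That of ngn-1 was lost without any 1 of N2 DR replicates 1, 2 or 3 (adjusted p = 0.113, 0.102 and 0.0759), sek-1 AL replicate 1 (0.0599), or sek-1 DR replicates 2 or 3 (0.103 and 0.148). The hlh-14 call was lost without N2 DR replicates 1 or 2 (0.108 and 0.119), sek-1 AL replicate 1 (0.053), or sek-1 DR replicates 2 or 3 (0.0567 and 0.148).

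The hlh-1 call on DR held in 3 of the 12 fits. It was lost without N2 AL replicate 2 (adjusted p = 0.0522), N2 DR replicates 1 or 3 (0.127 and 0.154), sek-1 AL replicates 1, 2 or 3 (0.0623, 0.0627 and 0.0615), or sek-1 DR replicates 1, 2 or 3 (0.118, 0.0541 and 0.132). The ceh-22 calls held in 3 of 12 fits on each diet. On DR, ceh-22 passed without N2 AL replicate 3, N2 DR replicate 1 or sek-1 AL replicate 2, and in the other fits its adjusted p lay between 0.0554 and 0.166. On AL, ceh-22 passed without N2 AL replicate 3, N2 DR replicate 1 or sek-1 AL replicate 1, and in the other fits its adjusted p lay between 0.0515 and 0.17. On DR, ngn-1, hlh-14, hlh-1 and ceh-22 also failed to pass with DESeq2 (adjusted p = 0.0656, 0.0584, 0.088 and 0.104).

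Diet gave no call. None of the 10 regulators passed for DR against AL in sek-1(km4), beside 0.171% of tested genes higher and 0.281% lower, and none passed in N2, beside 0.363% higher and 0.725% lower (edgeR adjusted p under 0.05). At an unadjusted p under 0.05, 1 member reached it in sek-1(km4), namely ceh-43, beside 13.4% of tested genes, and 2 did in N2, namely elt-3 and ceh-43, beside 14%. DESeq2 called none of them in either genotype, with no adjusted p for 2 members in sek-1(km4). limma with voom and sample quality weights called none in N2 and 4 in sek-1(km4): elt-3 at a log2 difference of 0.38, ceh-43 at 0.64, ngn-1 at 0.98 and hlh-14 at 0.72 (adjusted p = 0.0219, 0.000256, 0.00126 and 0.0179). That method called 6307 of the 14611 genes for this contrast, 20.5% of them all as higher, and the 4 upward calls are to be read beside that share. No other fit called any of the 10 regulators for this contrast. The median log2 difference over the 10 was 0.32 in sek-1(km4), where that of all tested genes was 0.01, and 0.46 in N2, where it was -0.06.

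**Figure D3:**
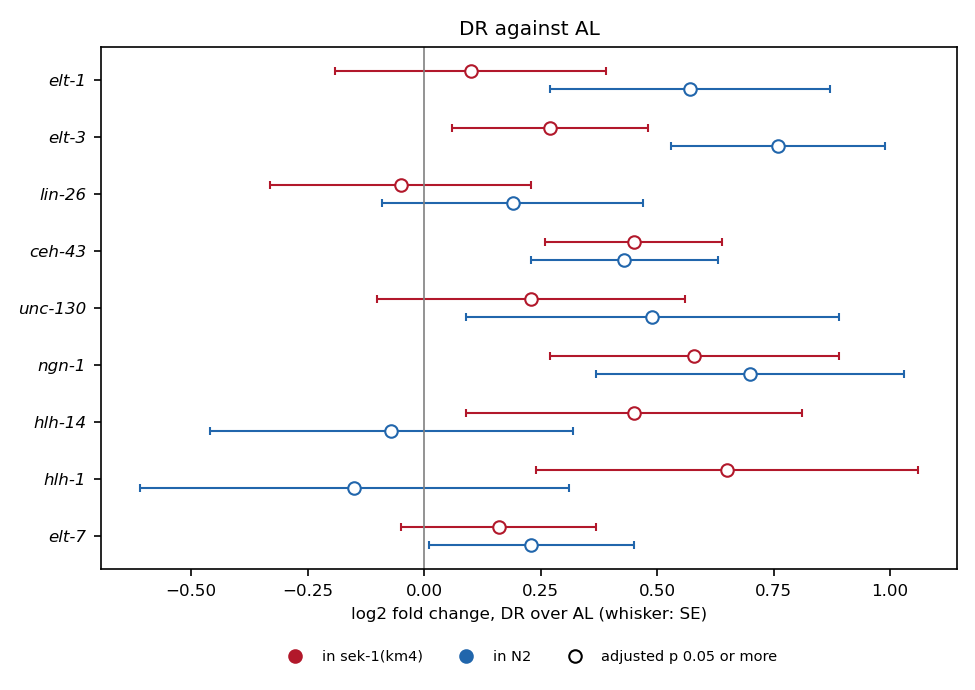
Fitted log2 fold change of DR over AL (x axis, whiskers SE) for 9 of the regulators in sek-1(km4) (red) and in N2 (blue), with open points where the edgeR adjusted p is 0.05 or more. All points are open, with elt-3 in N2 at 0.76 and ngn-1 in N2 at 0.70 farthest to the right.

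The individual differences by diet were positive for most regulators without passing. elt-3 had a log2 difference of 0.27 ± 0.21 in sek-1(km4) and 0.76 ± 0.23 in N2 (SE; edgeR adjusted p = 0.623 and 0.161). For ceh-43 it was 0.45 ± 0.19 in sek-1(km4) and 0.43 ± 0.20 in N2 (edgeR adjusted p = 0.346 and 0.353), and for ngn-1 it was 0.58 ± 0.31 and 0.70 ± 0.33 in the same genotypes (0.441 and 0.366). In N2, these 3 genes had all DR libraries above all AL libraries, an arrangement found upward in 6.82% of tested genes. In sek-1(km4), hlh-1 was the 1 member with no overlap between diets, beside 17.5% of tested genes, at a log2 difference of 0.65 ± 0.41 SE (edgeR adjusted p = 0.532).

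elt-1 had a diet difference of 0.10 ± 0.29 in sek-1(km4) and 0.57 ± 0.30 in N2 (SE; edgeR adjusted p = 0.923 and 0.417), and without N2 AL replicate 3 the N2 value was 0.24. ceh-22 had a count ratio of DR to AL of 1.27 in sek-1(km4) (95% interval 0.71 to 2.32) and of 2.70 in N2 (0.51 to 26.6). For hlh-1 in N2 the log2 difference was -0.15 ± 0.46 SE. The remaining members, elt-7, lin-26, unc-130 and hlh-14, lay between -0.07 and 0.49 on the log2 scale over both genotypes.

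The effect of diet was not shown to differ between genotypes for any of these regulators. In the interaction test, the diet difference in sek-1(km4) minus that in N2, no member passed, beside 0.0% of tested genes (edgeR adjusted p under 0.05). No member reached an unadjusted p under 0.05, which 8.92% of tested genes did, or passed with DESeq2, which gave 1 member no adjusted p, or with limma and quality weights. Over all genes DESeq2 called 33 and limma with quality weights 1374. The widest interaction values among members other than ceh-22 were 0.79 ± 0.62 for hlh-1, 0.52 ± 0.53 for hlh-14 and -0.49 ± 0.31 for elt-3 (log2, SE). The 2 genotype contrasts share no library, but each shares its libraries with a diet contrast, so the values above are not independent of one another.

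Replicates of a group did not scatter alike for all members. ceh-43, ngn-1 and hlh-14 were highest in replicate 3 in all 4 groups, which 11.8% of tested genes were. These 3 genes have short merged exons, of 1054, 730 and 692 nt. Other short members did not share the pattern: elt-7, with 841 nt, was highest in replicate 3 in 1 group and lowest in 1, and hlh-1, with 1196 nt, was highest in 2 and lowest in 1. Of tested genes with up to 1200 nt of exon, 24.5% were highest in replicate 3 in all 4 groups (1462 of 5966), against 3.07% of longer genes (262 of 8527). This pattern and the limit of 1200 nt were chosen after the values were seen, and the part of transcript length in the results for the members was not tested.

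For hlh-14, replicate 3 exceeded the mean of the other replicates by 0.73, 1.02, 0.61 and 0.61 on the log2 scale in the groups sek-1 DR, sek-1 AL, N2 DR and N2 AL. ngn-1 gave 0.52, 0.70, 0.21 and 0.66 in the same order, and ceh-43 gave 0.21, 0.59, 0.25 and 0.18. The long genes were unlike them, most of all in N2 AL replicate 3, where lin-26 was at -1.36 and elt-1 at -1.45. Deviations from the group means correlated at 0.90 between ngn-1 and hlh-14, at 0.87 between ceh-43 and hlh-14, and at 0.94 between elt-1 and lin-26. These values are a description over the 12 libraries, in which both genes of a pair are read from the same library. In sek-1 DR, sek-1 AL and N2 DR, replicate 3 lay at 0.01, 0.13 and -0.18 for elt-1 and at -0.08, -0.09 and -0.01 for lin-26. The value of 0.94 thus leans on N2 AL replicate 3, and it was not computed without that library. Over the levels themselves, elt-3 and unc-130 correlated at 0.97, the group differences included.

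**Figure D4:**
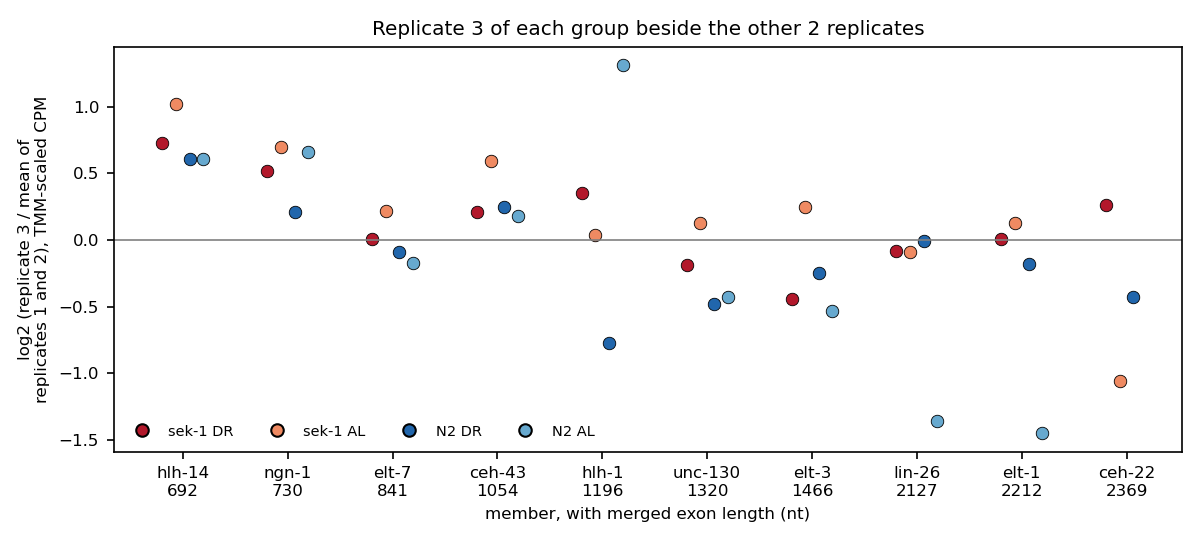
Log2 ratio of replicate 3 to the mean of replicates 1 and 2 in TMM-scaled CPM (y axis) for each regulator, ordered by merged exon length in nt (x axis), with 1 point per group; ceh-22 in N2 AL has no point because replicate 3 had 0 counts. hlh-14, ngn-1 and ceh-43 lie above 0 in all 4 groups, and elt-1 and lin-26 lie lowest in N2 AL.

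Most calls among other embryonic fate regulators were upward too. A list of 72 further factors of the same tissues gave 71 matched and 61 tested genes. In sek-1(km4) against N2 on DR, 35 of the 61 rose and 2 fell (median log2 1.27), and on AL 22 rose and none fell (median 0.94). Over all tested genes 24.9% rose and 14.6% fell on DR, and 12.7% rose and 4.72% fell on AL. Of the 61, 15 reached the filter level in fewer than 3 N2 libraries. Of the remaining genes, 26 rose and 2 fell on DR, and 18 rose on AL. Without N2 AL replicate 3, 46 of 62 rose and 3 fell on DR, and 32 rose and 1 fell on AL. That fit called 5398 of all genes higher and 4176 lower on DR, and 3466 and 2297 on AL. For diet, none of the 61 passed in either genotype, nor in the interaction. These counts of 0 depended on the fit: for DR against AL in sek-1(km4), 10 were higher and 1 lower without N2 AL replicate 3, 14 and 1 in a fit of the sek-1 libraries alone, and 32 and 2 with voom weights. In N2, 4 were higher and 1 lower without N2 AL replicate 3, and 5 and 1 with voom weights, which also called 8 in the interaction. Over all genes, the same fits in sek-1(km4) called, in that order, 879 higher and 1337 lower, 995 and 1170, and 2994 and 3313. In N2 the counts over all genes were 157 and 227 without that library and 508 and 539 with voom weights, which called 1374 in the interaction.

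By tissue, the share that rose on DR was 7 of 12 for epidermal factors, 14 of 23 for neuronal factors, 7 of 11 for pharyngeal factors, 6 of 12 for factors of muscle and mesoderm, and 1 of 3 for endodermal factors. On AL it was 6, 10, 3, 2 and 1 of the same lists, and 9, 14, 4, 4 and 1 without N2 AL replicate 3. Of these tested genes, 3, 7, 2, 2 and 1 in the same order reached the filter level in fewer than 3 N2 libraries. Without them, 4, 11, 6, 4 and 1 rose on DR, and 4, 8, 3, 2 and 1 on AL. With few genes per list, 1 of 3 on DR and 2 of 12 on AL are near the shares over all tested genes. The endodermal gene was elt-2, the main intestinal GATA factor, which rose by log2 1.27 ± 0.32 on DR and 1.54 ± 0.34 on AL (SE; edgeR adjusted p = 0.0103 and 0.00879). The 2 that fell on DR, both from the list of muscle and mesoderm, were tbx-9, a T-box gene, at -0.76 ± 0.18, and pal-1, the Caudal homologue that specifies posterior blastomeres, at -0.72 ± 0.25 (SE; edgeR adjusted p = 0.00627 and 0.0394). tbx-9, pal-1 and elt-2 were named after their values were seen.

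The 6 factors with the largest passing differences, picked for that size, included neuronal and epidermal genes on both diets. On DR these were unc-86, a POU homeobox gene of neuronal identity, at log2 4.14 ± 0.30, egl-46, a zinc-finger gene of neuronal differentiation, at 3.79 ± 0.52, blmp-1, the Blimp1 homologue of the epidermis, at 3.64 ± 0.32, the proneural gene cnd-1 at 3.36 ± 0.63 and grh-1, the Grainyhead gene of epithelia, at 2.85 ± 0.45 (SE; edgeR adjusted p = 8.4e-06, 0.000314, 2.21e-05, 0.00201 and 0.000836). The sixth was unc-30, a homeobox gene of GABA neurons, with 150 counts in sek-1(km4) against 10 in N2 and a scaled ratio of 15 (95% interval 7.92 to 31.8). On AL, egl-46 was at 3.77 ± 0.54, lin-22, a Hairy-related gene of the epidermal seam, at 3.27 ± 0.48, unc-86 at 3.10 ± 0.30 and grh-1 at 3.01 ± 0.47 (edgeR adjusted p = 0.000604, 0.000712, 4.19e-05 and 0.00103). unc-30 had 96 counts in sek-1(km4) against 4 in N2 on AL, a ratio of 17.6 (6.66 to 66.0), and pax-3 had 62 against 6, a ratio of 7.59 (3.29 to 21.5). No N2 library had more than 6 unc-30 counts, so unc-30 entered the test only through mutant libraries, where it is high. Per N2 library, cnd-1 had 3 to 6 counts on DR, and on AL lin-22 had 2 to 6 and pax-3 1 to 3. Levels this low in N2 put cnd-1, lin-22 and pax-3 through the filter only by way of mutant libraries too, where they are high. The folds of these genes rest on few N2 reads. In N2 on AL the counts per library ran from 0 to 34 for egl-46 and from 2 to 48 for grh-1. The AL folds of egl-46 and grh-1 therefore rest on N2 libraries that differ widely.

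A mixed list of epidermal matrix genes rose in the mutant as well. It holds precuticle genes such as noah-1 and let-653, the precuticle being the matrix laid down before a cuticle. Cuticle collagens such as dpy-7 and sqt-3 and molting genes such as mlt-10 are in it too. The list is therefore specific neither to precuticle nor to the embryo. Of its 24 genes, 21 rose and 1 fell in sek-1(km4) on DR (median log2 2.18), and 20 rose on AL (median 2.35). Over all tested genes 24.9% rose and 14.6% fell on DR, and 12.7% rose on AL. Of the 24, 3 entered the test only through mutant libraries, and of the remaining 21 genes 18 rose on each diet. Their summed level was 1063 to 1617 CPM in sek-1(km4) on DR against 678.7 to 894.3 CPM in N2 on DR, and 1160 to 1410 CPM in sek-1(km4) on AL against 292.7 to 728.7 CPM in N2 on AL. Of 13 genes of the adult epidermis, 8 rose on DR and 9 on AL, and none fell. Leaving out 2 that entered only through mutant libraries, 6 rose on DR and 7 on AL.

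Transcripts of the germ line and of the eggshell went the other way on DR. Both lists hold cpg-1 and cpg-2. Of 23 tested oocyte and germ line genes, 20 fell and none rose (median log2 -1.12), and of 12 tested eggshell genes 11 fell and none rose (median -1.27). Over all tested genes 14.6% fell and 24.9% rose on DR. The germ line genes summed to 5890 to 8221 CPM in sek-1(km4) on DR against 14240 to 15110 CPM in N2 on DR, and the eggshell genes to 4763 to 6799 CPM against 11190 to 12940 CPM in the same groups. On AL the germ line genes summed to 8134 to 11890 CPM in sek-1(km4) against 8182 to 15950 CPM in N2, with 3 of 23 called lower, and 1 of 12 eggshell genes was called lower. Without N2 AL replicate 3 those AL counts were 20 of 23 and 10 of 12. That fit called 2297 of all genes lower on AL, against 690 (4.72%) in the main fit.

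Factors of the early embryo were split. Their lists share genes with others: oma-1, oma-2, mex-3 and spn-4 are both maternal factors here and in the germ line list. The genes tbx-38, end-1, end-3, med-1 and med-2 are both in the zygotic list and among the other fate regulators. Of 16 maternal factors and regulators of early blastomeres, 8 fell and none rose on DR (median log2 -0.70), and none passed on AL (median -0.13), where 10 fell without N2 AL replicate 3. Leaving out that library also gave 3 higher and 12 lower on DR. Over all tested genes 24.9% rose and 14.6% fell on DR in the main fit. Without that library, 5398 of all genes rose and 4176 fell on DR, and 3466 rose and 2297 fell on AL. Of 12 tested early zygotic transcripts, 6 rose and 1 fell on DR (median 1.06), and none passed on AL (median 0.23), where 3 rose and 1 fell without N2 AL replicate 3. The summed level of the zygotic list was nevertheless 625.6 to 688.2 CPM in sek-1(km4) on DR against 1298 to 1708 CPM in N2 on DR, so that its sum and its median differ in direction.

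Structural genes of adult tissues gave mixed counts, to be read beside the 24.9% of all tested genes that were higher on DR and the 12.7% on AL. On DR, 6 of 16 body wall muscle genes, 6 of 8 pharyngeal genes, 6 of 15 intestinal genes, 9 of 20 neuronal genes and 1 of 4 tested sperm genes rose in sek-1(km4), and 1 intestinal gene fell. On AL, 1 of 16, 0 of 8, 6 of 15, 7 of 20 and 1 of 4 of the same lists rose, and none fell. Without N2 AL replicate 3 those AL counts were 3, 1, 6, 13 and 1, in a fit that called 3466 of all genes higher. In the main fit, 1 pharyngeal and 3 neuronal genes entered the test only through mutant libraries. Leaving them out, 5 pharyngeal and 7 neuronal genes rose on DR, and 0 and 6 on AL. The share of sperm genes on DR was close to that over all tested genes, and those of body wall muscle and pharyngeal genes on AL were under it. No gene of any of these lists was at 0 in all libraries. elt-2 stands both in the intestinal list and among the endodermal factors. The part of the levels of these tissues, of germ line and of embryonic transcripts in the results for the 10 regulators was not tested.

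**Figure D5:**
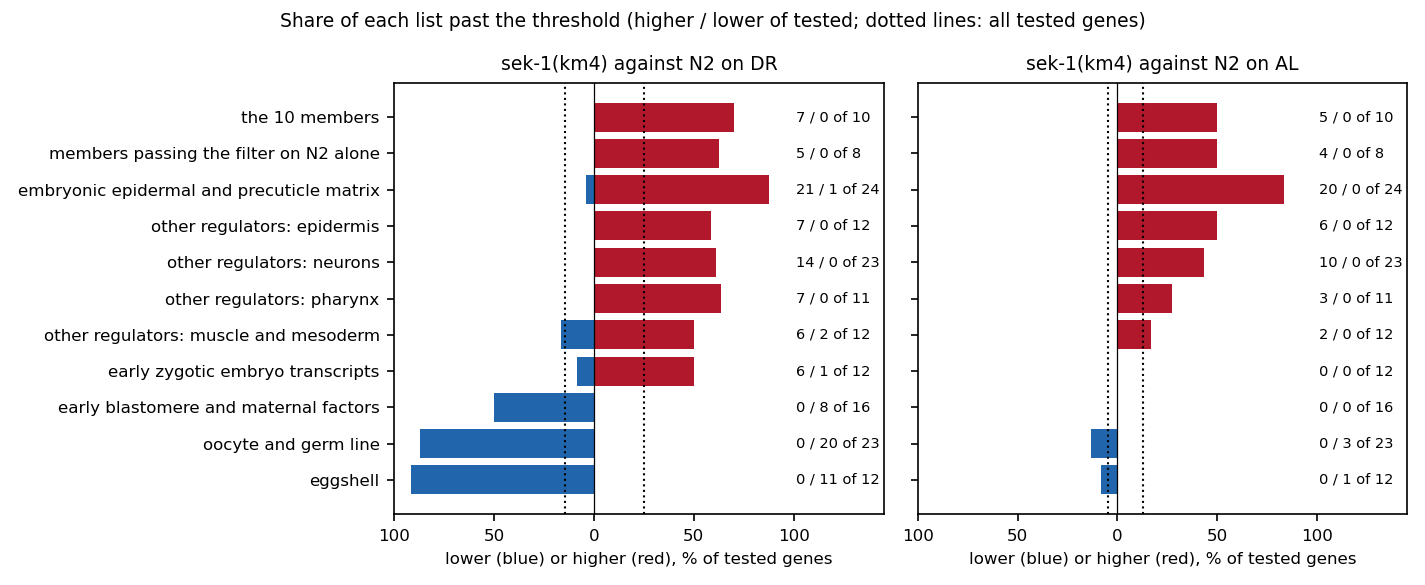
Percent of the tested genes of each list that passed as higher (red, right) or lower (blue, left) in sek-1(km4) against N2 on DR (left panel) and on AL (right panel), with counts as higher / lower of tested and dotted lines at the percent of all 14611 tested genes. Of the 10 regulators, 7 are higher on DR and 5 on AL (5 and 4 of the 8 that pass the filter on N2 libraries alone), whereas 20 of 23 oocyte and germ line genes and 11 of 12 eggshell genes are lower on DR. The list labelled embryonic epidermal and precuticle matrix also holds cuticle collagens and molting genes.

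The averaged profile of the 10 regulators followed the groups. After each gene was standardised over the 12 libraries, the mean over the members was 0.78 to 1.11 in sek-1(km4) on DR, 0.16 to 0.72 in sek-1(km4) on AL, -0.52 to -0.17 in N2 on DR and -1.21 to -0.80 in N2 on AL. Of the 7921 genes that averaged 5 CPM or more, the 6 with the highest Pearson correlation to this profile over the 12 libraries were R02D5.1 at 0.997, K09F6.10, R03H10.6 and rig-5 at 0.989, and R05G6.10 and ceh-13 at 0.988. ceh-13 is a Hox gene, the worm's labial homologue. It averaged 8.59 CPM in sek-1(km4) on DR, 7.15 CPM in sek-1(km4) on AL, 4.30 CPM in N2 on DR and 3.16 CPM in N2 on AL. These correlations include the differences between groups and between depths, and are given as a description.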

How the data were processed

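RNA-seq libraries of whole day 6 adults were counted per gene by the authors, who deposited 1 table of raw counts for 12 libraries. Per the submitters' processing notes the counting used featureCounts of Subread. Which aligner, genome build and strand setting were used is not stated there. Gene symbols, positions and merged exon lengths are from the Ensembl 115 annotation of WBcel235, which holds 46449 of the 46748 identifiers. Genes with at least 10 counts' worth of CPM (0.425) in at least 3 libraries were kept (14611 genes), scaled by TMM and tested with edgeR 4.0.16 (robust quasi-likelihood, 4 group means, all 12 libraries, no replicate term). Benjamini-Hochberg adjustment ran over all tested genes at 0.05. Each SE was taken as the size of the log2 difference over the root of its F statistic. The 10 regulators, the other lists and the tests were chosen with earlier results of these data known. The 6 other regulators named per diet are those with the largest passing differences. The averaged profile used log2(CPM + 0.1). Ratios of few counts have exact 95% intervals, which cover counting error only. Nothing states how the cultures behind the biological replicates were separated. Alternatives were RLE factors, no filter, rRNA genes removed, a replicate block, the libraries of 1 contrast alone, limma 3.58.1 voom with sample quality weights, DESeq2 1.42.0 and leaving out each library.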

Additional observations from a re-analysis of the deposited data

How the results depend on the processing

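No regulator that passed changed sign under any alternative. In the main fit, 5 regulators passed on AL and 7 on DR for sek-1(km4) against N2. On AL the count was 2 in a fit of the AL libraries alone, and 6 with rRNA genes removed and with voom weights. On DR it was 4 with RLE factors, 4 with no filter, 3 with DESeq2 and 6 with the replicate block. DR against AL in sek-1(km4) gave 4 with voom weights. Leaving out 1 library gave 3 to 6 on AL, 3 to 8 on DR, and 0 to 0 for diet and interaction. Over all genes, DR against AL in N2 gave 159, against 246 with the block, 0 with its libraries alone, 98 with those less N2 AL replicate 3 (a setting chosen after seeing the data), 1047 with voom weights, 458 with DESeq2 and 24 to 384 without 1 library. DR against AL in sek-1(km4) gave 66, against 114 unfiltered, 183 with the block, 2165 alone, 6307 with voom weights, 633 with DESeq2 and 6 to 2216 without 1 library. sek-1(km4) against N2 on AL gave 2550, against 1187 alone, 5576 alone less N2 AL replicate 3, 6963 with voom weights and 1531 to 5763 without 1 library (the highest without N2 AL replicate 3). On DR it gave 5767, against 8760 alone, 10895 with voom weights and 3784 to 9574 without 1 library. The interaction gave 0, against 6 unfiltered, 1 with the block, 1374 with voom weights, 33 with DESeq2 and 0 to 12 without 1 library. The cause was not tested.

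Signs turned only where nothing passed (log2). For DR in N2, lin-26 gave -0.08 with voom weights and -0.13 without N2 AL replicate 3, hlh-1 gave 0.59 with voom weights, and hlh-14 gave 0.05 unfiltered, 0.00 without rRNA genes and 0.13 without N2 AL replicate 3. For the genotype on AL, lin-26 gave -0.02 with voom weights and -0.07 without N2 AL replicate 3. On DR, elt-7 gave -0.01 with RLE and -0.03 with DESeq2, and lin-26 gave -0.09 with RLE, -0.03 unfiltered, -0.01 without rRNA genes, -0.04 with voom weights and -0.11 with DESeq2. For the interaction, voom weights gave 0.14 for elt-7, 0.10 for ngn-1 and -0.27 for hlh-1, and ceh-43 gave -0.04 with RLE, -0.14 unfiltered, -0.08 without rRNA genes and -0.07 with DESeq2. Ranges without 1 library that crossed 0 were, for DR in N2, -0.13 to 0.41 (lin-26), -0.53 to 0.34 (hlh-1) and -0.22 to 0.13 (hlh-14). For the genotype they were -0.07 to 0.47 on AL and -0.07 to 0.04 on DR (lin-26), and -0.03 to 0.23 on DR (elt-7). For the interaction they were -0.28 to 0.05 (elt-7), -0.47 to 0.08 (lin-26), -0.22 to 0.09 (ceh-43), -0.90 to 0.17 (unc-130) and -0.50 to 0.05 (ngn-1).

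With the replicate number as a block, 5 regulators passed on AL and 6 on DR. On DR elt-1 passed (adjusted p = 0.0411), and ceh-22 (0.0502) and hlh-1 (0.0505) did not. On AL ngn-1 passed (0.0271) and ceh-22 did not (0.0511). The labels do not say what a number shares. Deviations of same-numbered libraries correlated at 0.117 to 0.388 for number 1, -0.071 to 0.14 for number 2 and 0.261 to 0.387 for number 3, over 0.1 in 13 of 18 pairs, and 8 of 12 libraries correlated best with their own number. This is a hint from the data that numbers 1 and 3 tie libraries across groups, and for number 2 it was not shown. DESeq2 gave no adjusted p for some values of low members, and fits of 1 contrast alone gave none for the interaction. Removing rRNA genes raises CPM by construction. Depth limits ceh-22 and hlh-1, whose counts per library reached at most 14 and 32.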
